A study of Mus musculus with 12 samples.

Results

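The microglial genes described here are 10 transcripts that mark the resident macrophages of the brain, namely Cx3cr1, Csf1r, P2ry12, Tmem119, Aif1, Trem2, Tyrobp, C1qa, C1qb and C1qc. They were taken by gene symbol from a table of 38283 mouse genes. All 10 were present, and all 10 were among the 14017 genes with a mean of at least 1 FPKM. FPKM is the number of sequenced fragments on a gene, scaled for the length of its transcript and for the total of the library. The genes were selected on measured values, since microglial markers had as a group higher FPKM in the mutant mice in these same libraries, and their differences between genotypes are given as a description, without a test.

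Mice homozygous for the R299Q substitution in the γ2 subunit of AMPK, the cellular energy sensor (Homo), carried as a germline knock-in and so in every cell type, were compared with wild-type animals (WT). All were C57BL/6 males aged 8 weeks that fed ad libitum. The arcuate nucleus of the hypothalamus (ARC) was cut from brain cryosections by laser capture, its RNA was amplified across the whole transcriptome, and 1 library per mouse was sequenced from 5 WT and 7 Homo animals. Prkag2, which encodes γ2, had a mean FPKM of 14.6 ± 5.43 in WT animals and 14.8 ± 4.88 in Homo animals (SD). A point mutation need not alter its level, so this value does not check the genotype of any library.

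Microglia enter the brain early in development, renew themselves there and survey the tissue with motile processes. They depend on signalling through the CSF1 receptor, sense neurons through receptors for fractalkine and for extracellular nucleotides, take up lipid and debris through TREM2, and are the main source of C1q in the brain, the starter of the classical complement cascade. In the hypothalamus they are known to respond to diet. Each captured ARC also held neurons, astrocytes, tanycytes and vessels. A difference in the number of microglia and a difference in RNA per microglial cell therefore cannot be told apart in these bulk values.

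The libraries stood in 2 sets that crossed genotype. WT 1, WT 2 and Homo 1 to Homo 5 had between 15742 and 16467 genes above 0, whereas WT 3, WT 4, WT 5, Homo 6 and Homo 7 had between 18141 and 18635. The spacing of low FPKM gives an estimate of depth, by which 1 fragment on 1 kb of transcript was worth about 0.16 to 0.33 FPKM in the former 7 libraries (the shallower set) and 0.086 to 0.124 FPKM in the latter 5 (the deeper set). Neither the sample labels nor the text of the study gives this division as a batch, and every member is therefore also given within each set. Across the members, the estimated number of fragments behind a value ran from about 5.6 for Trem2 in WT 2 to about 620 for Csf1r in Homo 6. These estimates cover counting only, and amplification before sequencing means that fragments are not independent molecules.

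The genes lie on 7 chromosomes in the mouse genome (GRCm38, GENCODE release M21), and all are protein coding. The C1q genes form a cluster on the minus strand of chromosome 4, with C1qb at chr4:136880129-136886187, C1qc at chr4:136889804-136893065 and C1qa at chr4:136895917-136898803. Cx3cr1 (chr9:119901616-120069879), P2ry12 (chr3:59216272-59262871), Tmem119 (chr5:113793729-113800516) and Aif1 (chr17:35170991-35176068) are also on minus strands. Trem2 (chr17:48346401-48354147), Tyrobp (chr7:30413760-30417585) and Csf1r are on plus strands. P2ry12 lies inside Med12l, which runs on the opposite strand, the end of Csf1r overlaps Hmgxb3, and the long annotated span of Cx3cr1 covers several neighbours, Wdr48 and Gorasp1 among them. Overlap was taken from whole gene spans, without comparing exons, and the sources do not say that strand was used in counting. How far the reads of such partners can be told apart was therefore not tested. Wdr48 had a mean FPKM of 5.69 ± 1.17 for WT and 7.15 ± 1.08 for Homo, higher in Homo as Cx3cr1 was, and Gorasp1 had 4.56 ± 1.58 and 4.50 ± 1.03 (SD). The part of Wdr48 in the value of Cx3cr1 was not tested. The mean FPKM of Med12l was 6.43 ± 1.66 in the WT group and 6.71 ± 2.02 in the Homo group, and that of Hmgxb3 was 2.38 ± 0.95 and 1.36 ± 0.61 (SD).

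Promoter sequences (250 bases before to 50 after the annotated start, RefSeq on GRCm38.p6) were used for 6 of the 10 genes. Csf1r was left out of this search, and no promoter sequence was available for C1qa, Tmem119 or Tyrobp. The 6 sequences were searched on both strands for AGGAAG, the purine-rich core bound by PU.1, the transcription factor on which macrophages and microglia depend. The letters occurred in 4 of these 6 promoters and in 35.4% of 32851 promoters of the same length. The 4 that hold it are shown because they cover a nucleotide receptor, the lipid receptor and neighbouring genes of the C1q cluster. Capitals mark the match, written as CTTCCT where it lies on the other strand, and each sequence reads 5′ to 3′ on the strand of its gene, for P2ry12 at chr3:59262936-59263235 (minus), Trem2 at chr17:48346151-48346450 (plus), C1qb at chr4:136886151-136886450 (minus) and C1qc at chr4:136892865-136893164 (minus).
P2ry12: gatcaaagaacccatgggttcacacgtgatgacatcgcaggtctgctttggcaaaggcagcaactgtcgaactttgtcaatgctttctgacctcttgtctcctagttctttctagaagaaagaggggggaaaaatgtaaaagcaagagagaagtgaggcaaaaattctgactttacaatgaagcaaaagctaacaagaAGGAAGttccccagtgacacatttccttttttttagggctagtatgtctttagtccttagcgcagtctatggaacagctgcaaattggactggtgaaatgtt
Trem2: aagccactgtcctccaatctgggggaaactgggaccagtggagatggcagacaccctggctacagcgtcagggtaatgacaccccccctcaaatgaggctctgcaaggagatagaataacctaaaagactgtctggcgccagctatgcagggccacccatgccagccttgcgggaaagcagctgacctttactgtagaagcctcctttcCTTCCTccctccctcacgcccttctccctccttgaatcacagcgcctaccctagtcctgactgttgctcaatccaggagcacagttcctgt
C1qb: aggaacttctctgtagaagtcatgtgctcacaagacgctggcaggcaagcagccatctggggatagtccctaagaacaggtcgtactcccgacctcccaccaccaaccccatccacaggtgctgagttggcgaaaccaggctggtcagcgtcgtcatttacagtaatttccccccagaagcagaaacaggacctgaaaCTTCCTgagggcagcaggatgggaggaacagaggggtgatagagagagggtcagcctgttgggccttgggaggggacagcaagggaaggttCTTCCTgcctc
C1qc: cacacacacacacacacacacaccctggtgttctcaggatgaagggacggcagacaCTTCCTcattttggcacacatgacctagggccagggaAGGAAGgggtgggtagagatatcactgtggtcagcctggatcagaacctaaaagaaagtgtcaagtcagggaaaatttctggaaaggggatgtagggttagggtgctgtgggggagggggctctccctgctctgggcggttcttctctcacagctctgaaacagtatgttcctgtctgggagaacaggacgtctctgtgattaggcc
In this numbering the match starts at base 199 in P2ry12, at base 210 in Trem2, at bases 199 and 290 in C1qb and at bases 57 and 94 in C1qc. The windows of Cx3cr1 and Aif1 did not hold these letters. TATAAA, the TATA box sequence, was in none of the 6 windows and in 13.6% of all promoters. The 6 windows held between 1 and 6 CG dinucleotides, with a median of 4.5 against 7 over all promoters. A match is a description of the letters and says nothing about binding in these mice.

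Per kilobase of transcript, the order of the mean levels over the 12 libraries was C1qb at 35.6 FPKM, Tyrobp at 35.2, C1qc at 25.5, C1qa at 15.0, Aif1 at 13.8, Csf1r at 9.37, Trem2 at 5.64, Tmem119 at 4.19, P2ry12 at 4.06 and Cx3cr1 at 3.78. Secreted C1q chains and the small adaptor Tyrobp were thus the most abundant of these transcripts per length, and Tmem119 and the receptors P2ry12 and Cx3cr1 the least. The step from C1qc down to C1qa was seen in 11 of 12 libraries, with a mean log2 ratio of 0.83 ± 0.61 (SD). The step from Csf1r down to Trem2 was seen in 10 of 12 libraries, with a mean log2 ratio of 0.96 ± 0.87. Both of these ratios were larger than their spread. The other neighbours in the order did not differ beyond their spread. C1qb exceeded Tyrobp in 5 of 12 libraries and Tmem119 exceeded P2ry12 in 4.

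All 10 genes had a higher mean log2(FPKM + 1) in Homo than in WT, where 49.3% of the 14017 genes did. Since the genes were chosen for this direction, nothing is read from that count. For none of the 10 did every Homo library exceed every WT library, which was so for 0.128% of all genes. None of the 10 had a limma adjusted p under 0.05 in this contrast, which 0.00713% of genes had, a share that is 1 gene, Jarid2. The median difference of the members was 0.39 on the log2(FPKM + 1) scale, against -0.0062 over all genes tested. The ratio of the mean FPKM of Homo to that of WT ran from 1.18 for C1qc to 2.30 for Trem2.

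**Figure D1:**
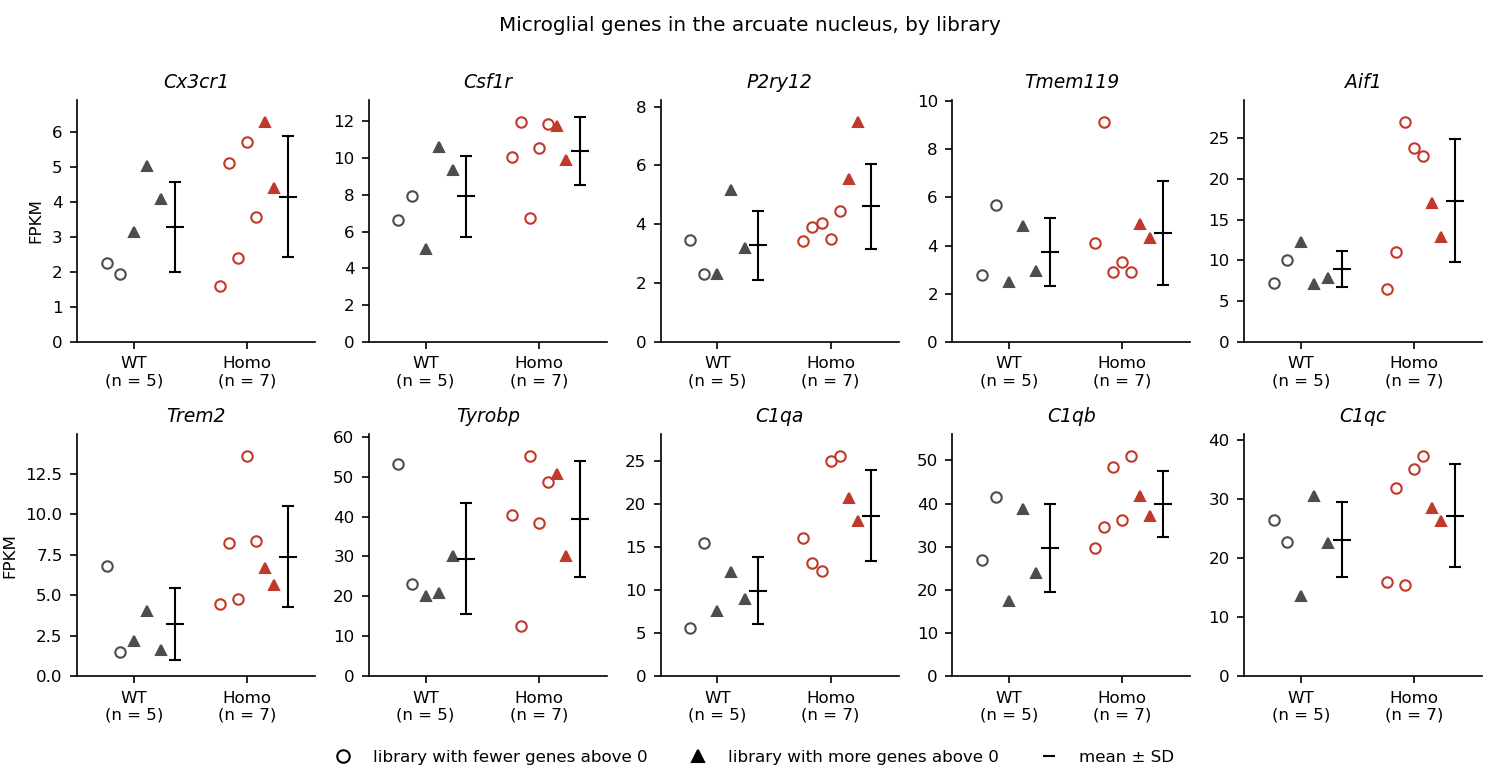
FPKM of each microglial gene in every library, with WT in grey and Homo in red. Open circles are the shallower set, with fewer genes above 0, filled triangles the deeper set, and black bars the mean ± SD. The groups overlap in all 10 panels, and C1qa and Aif1 each have 5 of 7 Homo libraries above every WT library.

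Cx3cr1 encodes the receptor for fractalkine, the tethered chemokine that neurons display. Its FPKM in WT 1 to WT 5 was 2.25, 1.93, 3.13, 5.03 and 4.09, and in Homo it ran from 1.58 (Homo 1) through a median of 4.39 to 6.28 (Homo 6). Homo 1 had the lowest and Homo 6 the highest value of all 12 libraries, so the WT range lay within that of Homo. The means were 3.29 ± 1.29 FPKM in WT (n = 5) and 4.14 ± 1.73 FPKM in Homo (n = 7, SD), a log2 difference of 0.23 (SE 0.30). Leaving out WT 2 gave 0.11, and leaving out Homo 1 gave 0.38. Among shallower libraries the difference was 0.51, and among deeper ones 0.32.

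Csf1r (chr18:61100598-61132149) encodes the receptor for CSF1 and interleukin 34, on which microglial survival depends. In WT 1 to WT 5 its FPKM was 6.63, 7.95, 5.06, 10.6 and 9.34, and in Homo it ran from 6.73 (Homo 3) through a median of 10.5 to 11.96 (Homo 2). In 6 of 7 Homo libraries Csf1r was above the WT median, Homo 3 being the exception, and 3 Homo libraries were above every WT library. The means were 7.91 ± 2.18 and 10.4 ± 1.84 FPKM, a log2 difference of 0.37 (SE 0.21). The difference was much the same in both sets, 0.42 and 0.39, and was 0.24 over all libraries but WT 3.

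P2ry12 encodes the ADP receptor that draws microglial processes towards released nucleotides, and it is a marker of resting microglia. In WT 1 to WT 5 its FPKM was 3.46, 2.30, 2.29, 5.17 and 3.19, and in Homo it ran from 3.41 (Homo 1) through a median of 4.03 to 7.47 (Homo 7). All 7 Homo libraries were above the WT median, but WT 4 exceeded 5 of them. The means were 3.28 ± 1.18 and 4.61 ± 1.45 FPKM, a log2 difference of 0.39 (SE 0.24). The difference was 0.34 in the shallower set and 0.76 in the deeper.

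Tmem119 encodes a transmembrane protein that is used to tell microglia from blood-derived macrophages. Its FPKM in WT 1 to WT 5 was 2.78, 5.68, 2.50, 4.80 and 2.93, and in Homo it ran from 2.91 (Homo 5) through a median of 4.13 to 9.13 (Homo 2). Homo 2 lay far above the other 6 Homo libraries, none of which reached WT 2. The means were 3.74 ± 1.41 and 4.51 ± 2.17 FPKM, the smallest log2 difference of the 10 at 0.19 (SE 0.28). Leaving out Homo 2 gave 0.03, and leaving out WT 2 gave 0.33. In the shallower and deeper sets the difference was 0.02 and 0.38.

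Aif1 encodes IBA1, the calcium-binding protein by which microglia are stained in tissue. Its FPKM in WT 1 to WT 5 was 7.23, 10.1, 12.3, 7.15 and 7.87, and in Homo it ran from 6.48 (Homo 1) through a median of 17.1 to 27.0 (Homo 3). The Homo libraries were spread widely: 5 of 7 exceeded every WT library, whereas Homo 1 was below all of them. The means were 8.92 ± 2.22 and 17.3 ± 7.56 FPKM, a ratio of 1.94 and a log2 difference of 0.79 (SE 0.31). It was 0.85 in the shallower set and 0.68 in the deeper, and between 0.66 and 0.98 when any library was left out.

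Trem2 encodes the lipid and lipoprotein receptor of microglia, which signals through the adaptor encoded by Tyrobp (DAP12). In WT 1 to WT 5 its FPKM was 6.78, 1.48, 2.17, 4.02 and 1.59, and in Homo it ran from 4.43 (Homo 1) through a median of 6.66 to 13.6 (Homo 4). Of the WT libraries, 4 were below every Homo library, and WT 1 alone lay among them. The means were 3.21 ± 2.24 and 7.38 ± 3.13 FPKM, the highest ratio of the 10 at 2.30, with a log2 difference of 1.06 (SE 0.33). This difference exceeded that of 98.19% of the genes tested, a description only, since the genes were chosen on this contrast. It was 0.92 in the shallower set and 1.05 in the deeper, and it ranged from 0.91 without WT 2 to 1.32 without WT 1. The low WT values rested on few fragments, about 5.6 in WT 2 and 12 in WT 5.

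The adaptor encoded by Tyrobp carries the signal of TREM2 and of other receptors into the cell. Its FPKM in WT 1 to WT 5 was 53.2, 23.2, 20.1, 20.8 and 30.0, and in Homo it ran from 12.5 (Homo 2) through a median of 40.3 to 55.1 (Homo 3). The lowest value of all 12 libraries was thus a Homo library and the second highest a WT library. The means were 29.5 ± 13.8 and 39.4 ± 14.5 FPKM, a log2 difference of 0.39 (SE 0.34). It was -0.0048 in the shallower set and 0.73 in the deeper, and 0.63 over all libraries but Homo 2. The ratio of Tyrobp to Trem2, both per length, ran from 1.53 in Homo 2 to 18.9 in WT 5, and its median was 9.27 for WT and 5.81 for Homo.

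C1qa, C1qb and C1qc encode the 3 chains that assemble in equal number into C1q. C1qa FPKM in WT 1 to WT 5 was 5.62, 15.4, 7.55, 12.1 and 8.95, and in Homo it ran from 12.2 (Homo 3) through a median of 17.955 to 25.5 (Homo 5). WT 2 exceeded Homo 2 and Homo 3, and the other 5 Homo libraries were above every WT library. The means were 9.93 ± 3.87 and 18.6 ± 5.33 FPKM, a ratio of 1.88 and a log2 difference of 0.87 (SE 0.26). It was 0.83 in the shallower set and 0.97 in the deeper, and between 0.71 and 1.04 with any library left out.

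C1qb FPKM in WT 1 to WT 5 was 27.0, 41.4, 17.3, 38.8 and 23.995, and in Homo it ran from 29.7 (Homo 1) through a median of 37.1 to 51.0 (Homo 5). Here 3 WT libraries were below every Homo library, while WT 2 and WT 4 lay in the middle of them. The means were 29.7 ± 10.2 and 39.8 ± 7.66 FPKM, a log2 difference of 0.46 (SE 0.22). It was 0.22 in the shallower set and 0.62 in the deeper, and 0.29 over all libraries but WT 3.

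C1qc FPKM in WT 1 to WT 5 was 26.4, 22.7, 13.5, 30.5 and 22.6, and in Homo it ran from 15.4 (Homo 3) through a median of 28.4 to 37.2 (Homo 5). Homo 1 and Homo 3 were among the 3 lowest of the 12 libraries. The means were 23.1 ± 6.29 and 27.2 ± 8.68 FPKM, a log2 difference of 0.20 (SE 0.26). Leaving out WT 3 gave 0.03 and leaving out Homo 3 gave 0.32. By set the difference was 0.05 (shallower) and 0.36 (deeper).

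The 3 chain genes therefore did not keep a fixed ratio between libraries. C1qb over C1qa, per length, ran from 1.45 in Homo 4 to 4.80 in WT 1, and its median was 2.69 for WT and 2.02 for Homo. C1qc over C1qa ran from 0.998 in Homo 1 to 4.70 in WT 1, and its median was 2.52 for WT and 1.41 for Homo. C1qb over C1qc had more alike medians, 1.27 in WT and 1.41 in Homo, and a range from 1.02 to 3.14. The summed FPKM of the chains ran from 38.4 to 81.4 in WT and from 61.8 to 114 in Homo, with medians of 59.0 and 81.4, so the sums overlapped.

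**Figure D2:**
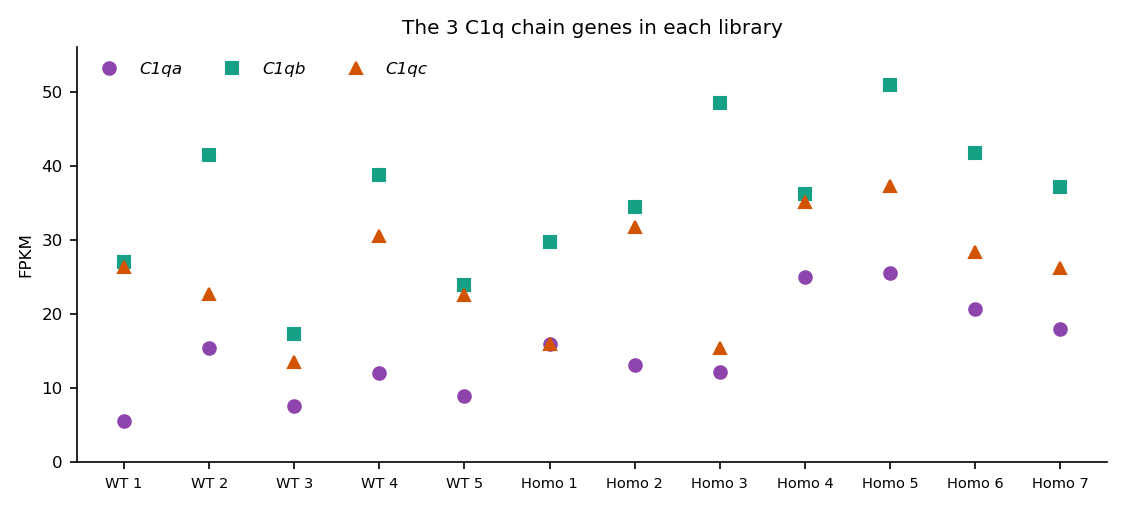
FPKM of C1qa, C1qb and C1qc in each of the 5 WT and 7 Homo libraries. C1qb was the highest of the chains in every library and C1qa the lowest in all but Homo 1, where C1qa and C1qc were level.

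Taken library by library, the mean log2(FPKM + 1) of the 10 genes was 3.23 ± 0.215 in WT, from 2.91 in WT 3 to 3.51 in WT 4. In Homo it was 3.72 ± 0.238, from 3.32 in Homo 1 to 3.94 in Homo 4. WT 4 was above Homo 1, and all other Homo libraries were above all WT libraries by this measure. WT 3 was the low extreme, with 5 of the 10 genes at their lowest of the 12 libraries and none above its own mean. Homo 6 was the opposite, with all 10 genes above their own means. In Homo 2 the members diverged, with Tmem119 at its highest of the 12 libraries and Tyrobp at its lowest. Within a genotype, the median SD of a member on the log2 scale was 0.46, against 0.50 for the 7911 genes in the same range of levels.

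**Figure D3:**
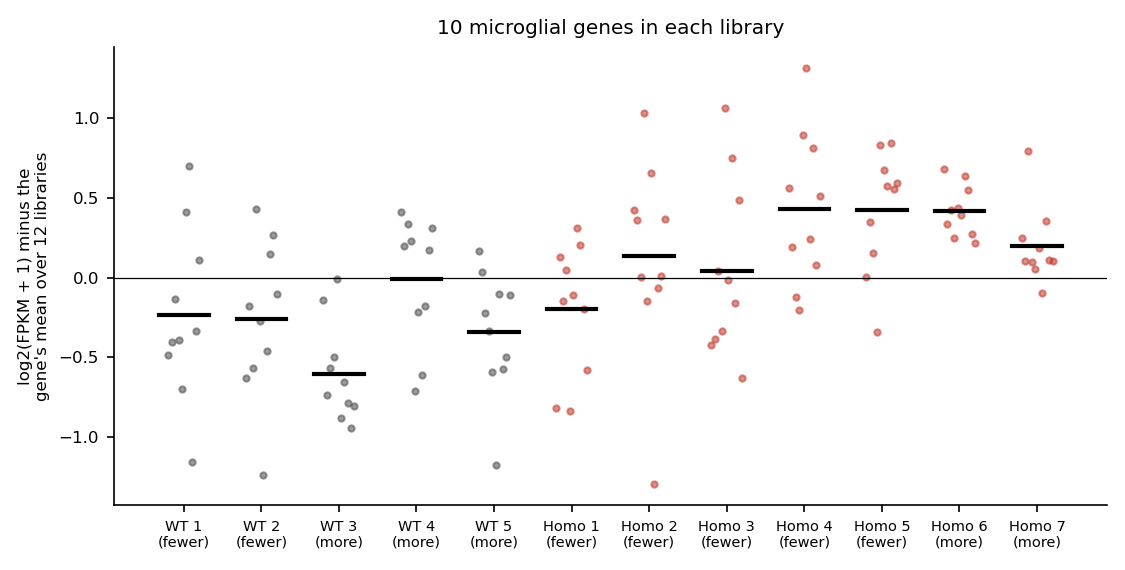
Each point is 1 of the 10 microglial genes in 1 library, as log2(FPKM + 1) minus that gene's mean over the 12 libraries, with WT in grey and Homo in red. Black bars are the mean of the 10 points and the word under each name gives the library set (fewer or more genes above 0). The bar of WT 3 is the lowest at -0.60, and those of Homo 4, Homo 5 and Homo 6 are the highest at 0.43, 0.43 and 0.42.

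Within the library sets, 9 of the 10 genes had a higher mean in Homo in the shallower set, Tyrobp being the exception, and all 10 in the deeper set. Over all genes these shares were 40.1% and 64.6%. The median difference of the members was 0.38 in the shallower set and 0.65 in the deeper, where that of all genes was -0.081 and 0.13. Both sets are parts of the 12 libraries on which the genes were chosen, so nothing is read from these counts and medians. The contrast between the sets themselves, fitted with genotype as a covariate, was not the one by which the genes were chosen and could be tested. None of the 10 passed a limma adjusted p of 0.05, where 0.178% of the 14017 genes did, and none had an unadjusted p under 0.05. Cx3cr1 had the smallest p, with a log2 difference of 0.60 (SE 0.28) towards the deeper set and a limma adjusted p of 0.595. P2ry12 followed, at 0.43 (SE 0.23) and a limma adjusted p of 0.658. Of the 10 genes, 4 were higher in the deeper set, and the median difference was -0.03.

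**Figure D4:**
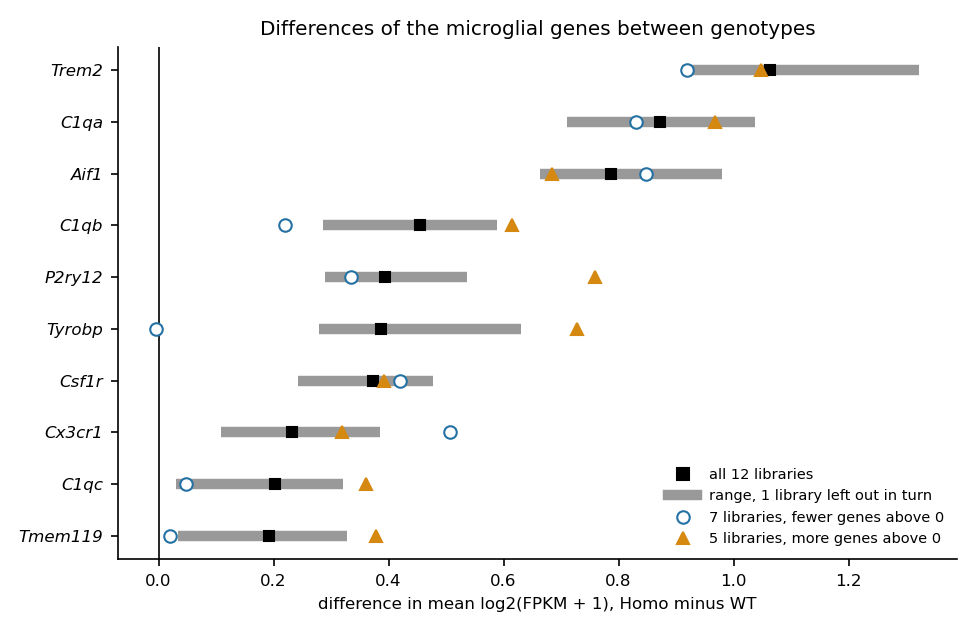
Difference in mean log2(FPKM + 1), Homo minus WT, for each microglial gene over all 12 libraries (squares), within the shallower set (7 libraries, circles) and within the deeper set (5 libraries, triangles). Grey bars span the values with each library left out in turn. Trem2, C1qa and Aif1 stay above 0.6 in every case, whereas Tyrobp lies at -0.0048 in the shallower set.

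By the mean absolute difference between centred log2 profiles over the 12 libraries, the genes outside the 10 whose profile was nearest to the members' mean profile were Tmed9 (0.127), Cxx1b (0.128), Psma6 (0.128), Eif3m (0.131) and Gas5 (0.132). The median over all genes was 0.472. Tmed9 acts in vesicle traffic, Psma6 is a proteasome subunit, Eif3m a translation initiation factor and Gas5 a non-coding RNA that hosts small nucleolar RNAs. None of these 5 belongs to the immune lists used here, and 1 of the 100 nearest genes does. Those lists hold few of the 14007 tested genes outside the members, so nothing is read from these counts. Among the members, Csf1r (0.225), P2ry12 (0.233) and C1qb (0.240) were nearest to the mean of the other 9, and Tyrobp (0.513) and Aif1 (0.464) were farthest. For every member, other genes lay closer to that mean than the member itself did, from 216 genes for Csf1r to 8124 for Tyrobp. All 12 libraries share an origin and a scaling with every gene compared, so these distances are descriptions.

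Other genes of microglial and macrophage identity were examined as a list of 38 chosen with earlier results of these libraries known. Of these, 27 had a mean of at least 1 FPKM. None passed a limma adjusted p of 0.05, 3 had an unadjusted p under 0.05 (5.55% of all genes did), 22 had a higher and 5 a lower mean in Homo, and their median log2 difference was 0.21. The median was 0.14 within the shallower set and 0.57 within the deeper. Without Homo 5 it was 0.12. With WT 3 left out, 17 of the 27 had a higher mean in Homo, and in the shallower set 14 of 25. Over all genes tested in each case, the share higher in Homo was 49.3%, 44% without WT 3 and 41.2% in the shallower set. Siglech, a sialic acid-binding lectin of microglia, had a mean FPKM of 2.56 ± 1.45 in WT and 5.63 ± 3.38 in Homo, a log2 difference of 0.84 (limma adjusted p = 0.892). Cd53, a leukocyte tetraspanin, was at 0.77 ± 0.381 and 2.03 ± 1.21 FPKM, a difference of 0.72 (limma adjusted p = 0.899). The summed FPKM of the matched genes of the list ran from 121 to 232 in WT and from 183 to 254 in Homo.

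Of 18 ligands and signalling partners of the members, 14 were expressed at a mean of at least 1 FPKM. None passed the limma test, 0 had an unadjusted p under 0.05, 8 had a higher and 6 a lower mean in Homo, and the median log2 difference was 0.08. That median changed sign with the set, at -0.05 in the shallower and 0.17 in the deeper, as that of all genes did (-0.081 and 0.13). It was 0.03 without WT 3 and 0.16 without WT 2. Cx3cl1, or fractalkine, was at 49.7 ± 12.2 FPKM in WT and 40.3 ± 8.72 in Homo, a log2 difference of -0.29 (limma adjusted p = 0.915). Of the ligands of the CSF1 receptor, Csf1 was at 7.90 ± 4.14 and 11.5 ± 6.69 FPKM, a difference of 0.47 (limma adjusted p = 0.917), and Il34 was at 12.1 ± 6.02 and 7.17 ± 6.11 FPKM, a difference of -0.89 (limma adjusted p = 0.909). The difference of Il34 was -1.92 within the shallower set and 0.43 within the deeper, so its direction turned with the set. The lipoproteins Apoe and Clu, which TREM2 binds, had log2 differences of 0.34 and 0.09, with Apoe at 625 ± 205 FPKM in WT and 770 ± 157 in Homo. Both turned with the set, Apoe from -0.10 in the shallower to 0.64 in the deeper and Clu from -0.35 to 0.47.

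Among molecules that restrain microglia, Cd200 had a log2 difference of 0.29, Cd47 of -0.01 and its receptor Sirpa of -0.17. Tgfb1, a cytokine required for microglial identity, was at 0.586 ± 0.334 FPKM in WT and 2.54 ± 3.01 in Homo, a difference of 0.80 (limma adjusted p = 0.915), and its receptors Tgfbr1 and Tgfbr2 had differences of 0.07 and 0.26. Adam10, the protease that sheds TREM2 and fractalkine, had a difference of 0.20. The nucleotide-handling genes Entpd1, an ectoenzyme that degrades ATP, and Panx1, an ATP release channel, had differences of -0.27 and -0.28. Syk and Plcg2, which act below TREM2 and DAP12, and Nt5e and Cd200r1 were under the filter, at mean levels of 0.116, 0.586, 0.384 and 0.0288 FPKM.

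Beyond C1q, the complement list held receptors, substrates and regulators. Of 27 components and regulators beyond C1q, 14 were tested, none passed the limma test, 1 (Csmd3) had an unadjusted p under 0.05, 6 had a higher and 8 a lower mean in Homo, and the median log2 difference was -0.12. This direction was not stable. Without WT 1, 8 of 14 had a higher mean in Homo and the median was 0.08. Under quantile normalization the median was 0.001. For the same 14 genes it was 0.04 within the shallower set and 0.05 within the deeper, against -0.081 and 0.13 over all genes. Itgam, the α chain of complement receptor 3, was at 6.39 ± 4.02 FPKM in WT and 10.3 ± 3.77 in Homo, a difference of 0.73 (limma adjusted p = 0.899). Csmd3, a neuronal protein with complement control domains, was at 10.3 ± 3.00 and 6.57 ± 2.85 FPKM, a difference of -0.64 (limma adjusted p = 0.899). Sez6, a further neuronal member of that kind, was at 14.9 ± 8.90 and 9.11 ± 3.47 FPKM, a difference of -0.61 (limma adjusted p = 0.908). Within the deeper set, Csmd3 and Sez6 differed by 0.02 and 0.07. C3 and C4b, which act after C1q in the classical cascade, had mean levels of 1.48 and 2.02 FPKM, and Cfd, Cfi and Vsig4 were listed at 0 in all 12 libraries.

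Genes of activated, disease-associated microglia were tested for 13 of 21. None passed, 0 had an unadjusted p under 0.05, 9 had a higher and 4 a lower mean in Homo, and the median log2 difference was 0.20, but it was -0.08 within the shallower set, 0.34 within the deeper and 0.13 without Homo 6. Over all genes the median was -0.081 within the shallower set and 0.13 within the deeper. Ctsl, a lysosomal protease, was at 40.8 ± 9.53 FPKM in WT and 52.1 ± 7.93 in Homo, a difference of 0.36 (limma adjusted p = 0.899). Cd9, a tetraspanin, was at 11.0 ± 3.00 and 7.16 ± 3.36 FPKM, a difference of -0.62 (limma adjusted p = 0.899). Apoe belongs to this list too. Of the 8 genes of the list that were not tested, Itgax, Clec7a, Gpnmb and Cst7 had the lowest mean levels, at or under 0.268 FPKM.

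Inflammatory cytokines and genes of the NF-kB pathway were mostly under the filter, with 8 of 29 tested, 2 higher and 6 lower in Homo and a median log2 difference of -0.23. That direction did not hold in the deeper set, where 6 of 8 tested genes had a higher mean in Homo, beside 65.5% of all genes tested there. Without WT 2, 5 of 8 were higher, with a median of 0.16. Without Homo 1, 5 of 9 tested genes were higher, with a median of 0.02. Over all genes these shares were 51.1% without WT 2 and 48.1% without Homo 1. Tnf, Il6 and Il10 were listed at 0 in all 12 libraries, and Il1b was above 0 in 1. None passed the limma test, and 1, Tnfrsf1a, had an unadjusted p under 0.05. Tnfrsf1a, a receptor for tumour necrosis factor, was at 5.06 ± 3.44 FPKM in WT and 1.46 ± 0.693 in Homo, a difference of -1.18 (limma adjusted p = 0.666), which was -2.12 within the shallower set and -0.23 within the deeper. Ikbkb, a kinase of the same pathway, had a difference of -0.61. Of the MHC class II genes 2 of 7 were tested, Cd74 with a difference of -0.61 and H2-DMa with 0.33. Of the interferon response genes 10 of 12 were tested, 3 higher and 7 lower in Homo, none passed and 0 had an unadjusted p under 0.05. In the deeper set 8 of 9 tested interferon genes were higher, beside 65.5% of all genes tested there. Ifitm3, Irf9 and Ifit1 had differences of -0.53, -0.41 and 0.37. Ifitm3 differed by -0.72 in the shallower set and 0.03 in the deeper, and Irf9 by -1.01 and 0.07.

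**Figure D5:**
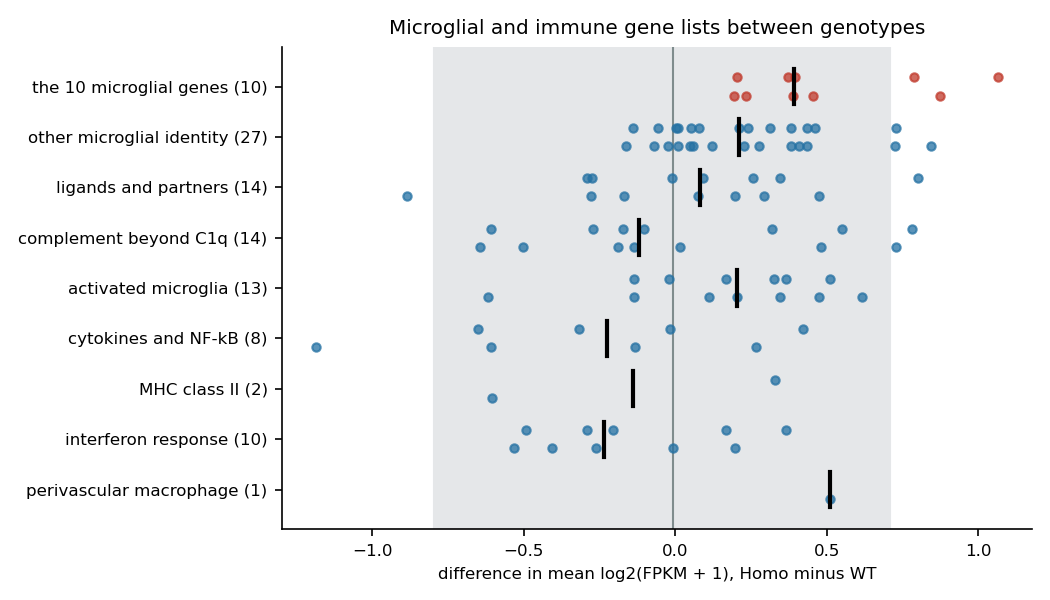
Difference in mean log2(FPKM + 1), Homo minus WT, for each tested gene of the microglial and immune lists, with the number tested in brackets; black bars are list medians. The grey band holds the 5th to 95th percentile of all 14017 genes, from -0.80 to 0.71, and the grey line their median. The microglial genes (red) all lie above 0, with a median of 0.39. The complement, cytokine and interferon lists have medians below 0 over all 12 libraries. Within the deeper set these are 0.05, 0.22 and 0.10, where the median of all genes is 0.13.

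Markers of other cells that carry some of the same transcripts were compared beside these values. Of 10 perivascular macrophage markers only Stab1 was tested, at a log2 difference of 0.51 (limma adjusted p = 0.929). The difference of Stab1 was 0.23 without Homo 4 and 0.93 without Homo 5. The summed FPKM of that list was 9.01 to 19.8 in WT and 3.11 to 60.5 in Homo. Stab1 alone was at 8.37 to 18.9 FPKM in WT and 2.32 to 59.8 in Homo, so the sum mostly gives that gene. Cd209f was listed at 0 in all libraries. For 12 markers of infiltrating leukocytes the sum was 0.0951 to 57.2 in WT and 0 to 3.41 in Homo, with Cd3g listed at 0. Of these markers, 3 had a mean of at least 1 FPKM over the 12 libraries, and none did without WT 3. For red blood cells the sum was 10.8 to 186 in WT and 5.03 to 103 in Homo. Their part in the differences of the microglial genes was not tested.

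The markers of other brain cells also differed in their means without any gene passing the limma test. All 9 oligodendrocyte markers tested had a higher mean in Homo, with a median log2 difference of 0.40 and a summed FPKM of 91.6 to 573 in WT and 160 to 434 in Homo. Without WT 4, 7 of those 9 were higher and the median was 0.12, and without WT 5 it was 0.76 over 8 tested markers. Astrocyte markers had 7 of 10 higher with a median of 0.23, which was 0.13 without WT 3. Pan-neuronal markers had 7 of 9 higher with a median of 0.15, but 4 of 9 with a median of -0.07 in the shallower set, and medians of 0.005 without WT 3 and 0.04 without WT 1. Over all genes tested in the shallower set, 41.2% were higher. Endothelial, oligodendrocyte precursor, tanycyte and ependymal, and pericyte and smooth muscle markers had medians of 0.03, -0.13, -0.23 and -0.29. The first of these changed sign without WT 4 (-0.16) among other libraries and the next without WT 5 (0.17), and the others were -0.02 without WT 4 and -0.09 without WT 5. Both tested pituitary markers had lower means in Homo, with a median of -1.14 and a sum of 0 to 118 in WT and 0 to 58.0 in Homo. Without WT 3, 1 of the 2 was higher and the median was -0.15, and within the shallower set the median of both was 0.45. The part of these cells in the values of the microglial genes was not tested.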

How the data were processed

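The authors isolated ARC RNA with a Qiagen RNeasy Plus Micro kit, amplified it (NuGEN RNAseq v2), made bar-coded NuGEN Ovation libraries and sequenced them on an Illumina HiSeq instrument. The deposited table gives FPKM per gene and library. The submitters' processing notes name TopHat2 2.0.8, Cufflinks 2.2.1 and GRCm38, without roles; any scaling beyond FPKM is not given in the sources used here. All 12 columns were matched to mice by label (2 Homo columns, numbered 4 and 5, have a slightly different prefix and were matched by genotype and number), and 0 were left over.

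FPKM are not counts, so values were analysed as log2(FPKM + 1), which understates changes of low genes. The 14017 genes with a mean of at least 1 FPKM were fitted with limma 3.58.1 in R 4.3.3 (eBayes with trend and robust), genotype as the only term, Benjamini-Hochberg adjustment over all of them and a threshold of 0.05, two-sided. The study's statistical section lists parametric and rank tests for its data in general, and none by name for the transcriptome fit. The genotype p-values set each difference against the spread between mice of the same genotype, which here includes the split between library sets. The adjustment accounts for the number of genes tested. Libraries were ordered by how many genes were above 0, divided where neighbours lay farthest apart, and the resulting sets tested with genotype as a covariate. The fit was tested on simulated data. FPKM give no depth, so fragments were estimated from the steps of low values, with effective length taken as transcript length less 180 bases. Positions are from GENCODE M21.

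The members and lists were chosen with earlier results of these data known. Named genes are all members, every expressed partner, the most abundant gene and the 2 smallest unadjusted p in each other immune list, and the 5 nearest profiles; genes named as listed at 0 or under the filter were picked after their values were seen. A gene that this rule names is not reported here. Of the lists, 6 genes were not matched by symbol and are not analysed here. Same-numbered WT and Homo libraries did not deviate together, so the numbers were not taken as pairs. Alternatives covered scaling, filters, pseudocount, library sets, array weights, a replicate block and each library left out. Plots were drawn with matplotlib 3.10.9.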

Additional observations from a re-analysis of the deposited data

Results flagged for a closer look

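Among 40 named genes, each group of 5 WT or 7 Homo libraries was examined for a library that stood apart by Dixon's gap-to-range ratio on the log2(FPKM + 1) scale. Of 80 groups, 5 held such a library, and chance flags about 5% of groups. Csf1r in Homo 3 was low at 6.729 FPKM (ratio 0.662). Tmem119 in Homo 2 was high at 9.133 FPKM (ratio 0.57), and Tyrobp in Homo 2 was low at 12.54 FPKM (ratio 0.586). Outside the members, Panx1 in WT 2 was high at 44.08 FPKM (ratio 0.719) and Sez6 in Homo 2 was low at 2.863 FPKM (ratio 0.595). Homo 2 accounted for 3 of the 5. Without it the log2 difference of Tmem119 was 0.03 and that of Tyrobp 0.63.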

How the results depend on the processing

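The count of genes past the limma threshold between genotypes, 1 over all 12 libraries, was 5 in the shallower set, 18 in the deeper set, and 1 to 3 with each library left out. A replicate block on numbers 1 to 5 gave 2 such genes; same-numbered libraries correlated in their deviations between -0.023 and 0.029, so the numbers did not pair the mice. The count between library sets, 25, ran from 14 to 21 with each library left out (14 without WT 1 or Homo 6, 16 without WT 5). The number of other identity genes with a higher mean in Homo, 22 of 27, was 14 of 25 in the shallower set, 6 of 9 with a mean of at least 5 FPKM, and 17 to 23 with each library left out (this count and the named genes outside the members were followed through the alternatives after seeing the data). Over all genes tested in each case the share was 49.3%, then 41.2%, 51.5%, and 44% to 54.7% with each library left out. Of the members, P2ry12 moved to 0.76 in the deeper set and Tyrobp reversed to -0.0048 in the shallower. The other member differences kept their sign under every alternative that gave a value; Cx3cr1, P2ry12 and Tmem119 had none at a mean of at least 5 FPKM. The 30 named genes outside the members gave 646 values under the alternatives, 21 of them with the other sign. The median over all genes moved by under 0.1 with quantile or upper-quartile scaling. Depth limits Trem2 most, since its lowest WT values rest on about 5.6 to 12 fragments.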
